A study of Mus musculus with 18 samples.

Results

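The genes described here are 10 members of the transcription program of ATF4 and CHOP, the branch of the integrated stress response that works through gene expression. They are the transcription factors Atf4, Atf5, Atf3, Ddit3 (which encodes CHOP) and Cebpg, and the target and effector genes Trib3, Chac1, Sesn2, Ppp1r15a and Ddit4. They were picked by symbol from the 55450 genes of the deposited count table. The symbol Ddit3 occurs on 2 rows, so the 10 genes occupy 11 rows.

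RNA was sequenced from 3 mouse carcinoma cell lines, each treated with 100 µM sildenafil citrate, an inhibitor of the cGMP-degrading phosphodiesterase PDE5, or with DMSO as control. The groups, with 3 libraries each, were sildenafil-treated and control 4T1 cells (from a mammary carcinoma, grown in RPMI 1640 medium) after 24 h, sildenafil-treated and control MC38 cells (from a colon adenocarcinoma, grown in DMEM) after 24 h, and sildenafil-treated and control LLC cells (Lewis lung carcinoma, grown in DMEM) after 48 h. The genotype of all 18 samples is labelled W.T. The labels leave unsaid whether each library of a group is a culture of its own, so p-values reflect variation among these libraries that could be purely technical. Because LLC cells were treated for longer and 4T1 cells grew in another medium, a difference between lines cannot be told apart from treatment time or medium.

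In the integrated stress response, kinases that sense unfolded protein, missing amino acids, missing haem or double-stranded RNA phosphorylate the translation initiation factor eIF2. General translation then slows, while the Atf4 transcript, whose upstream reading frames normally divert ribosomes, is translated more. ATF4 pairs with other bZIP factors and raises transcription of genes for amino acid supply, of Atf3, Atf5 and Ddit3, and of feedback genes such as Trib3 and Ppp1r15a. Because ATF4 protein is set largely at translation, its transcript level is not a measure of the protein, and no protein was measured here.

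All 10 genes were well enough covered to be tested in each line. Totals ran from 41070026 to 61600675 expected read counts per library in 4T1, from 29438227 to 36417407 in MC38 and from 26348659 to 32129786 in LLC. Levels are given as CPM, a gene's count relative to the scaled total of its library, with 1 scale for all 18 libraries, and changes as log2 fold changes of sildenafil over control from edgeR's quasi-likelihood test, adjusted over all genes tested. Of 8 epithelial marker genes, 8 averaged at least 1 CPM in sildenafil-treated and control 4T1, 3 in MC38 and 1 in LLC, where they summed to between 182.1 and 188.8 CPM with sildenafil and to between 203 and 228 CPM in control. Of the mammary genes, Elf5 averaged 0 CPM and Krt5 at most 0.0345 CPM in 4T1. There Gata3 averaged 78.7 CPM with sildenafil and 60.6 CPM in control, and Krt14 4.30 and 4.85 CPM in the same groups. The intestinal genes Cdx1 and Cdx2 averaged 0 CPM in MC38, and the lung genes Nkx2-1, Sftpc and Scgb1a1 averaged 0 CPM in LLC. Other genes of the same lists were present, with Cdh17 at 6.19 CPM with sildenafil and 4.65 CPM in control MC38, Lgals4 at 0.932 and 0.937 CPM in the same groups, and Napsa at 7.88 CPM with sildenafil and 5.12 CPM in control LLC. Of 9 leukocyte markers 2 averaged at least 1 CPM in every group. The leukocyte list summed to 81.7 to 88.9 CPM in sildenafil-treated 4T1 and 34.6 to 35.8 CPM in control 4T1, and to at most 10.6 CPM in the other groups. The 8 fibroblast markers summed to 2133 to 2168 CPM in sildenafil-treated LLC and 1102 to 1141 CPM in control LLC, mostly as Col3a1. Pdgfra averaged 127 CPM with sildenafil and 59.9 CPM in control LLC. Col1a1, Dcn, Lum and Thy1 averaged at most 0.111 CPM there. In MC38 all 8 fibroblast markers together summed to 944.2 to 954.5 CPM with sildenafil and 1019 to 1041 CPM in control. In 4T1 the same 8 summed to 51.4 to 59.6 CPM with sildenafil and 26.5 to 29.1 CPM in control. The part of the cells behind all these markers in the results below was not tested.

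The promoters of 4 genes held a motif tied to this program, and those windows are shown because the motif is where ATF4 or a related bZIP factor could bind. The windows are RefSeq promoters on the build GRCm38.p6, from 250 bases before to 50 bases after the annotated start, found for all 10 genes (11 windows, since Atf5 has a pair). The letters TGATGNAA, the composite element recognised by ATF4 together with a C/EBP factor, were searched on both strands and are present in 3.97% of all 32851 promoters. TGACGTCA, the cAMP response element, was searched likewise and is present in 1.79%. Chac1, a target of ATF4, held the composite element in reverse, as TTGCATCA, at bases 193 to 186 before its start. Atf3 held the same letters at bases 110 to 103 before the start of its window, which is an internal start within the longer annotated gene. Capitals mark the motif in the 250 bases before the start, on the gene's own strand from 5′ to 3′.
Chac1, chr2:119350992-119351241, plus strand: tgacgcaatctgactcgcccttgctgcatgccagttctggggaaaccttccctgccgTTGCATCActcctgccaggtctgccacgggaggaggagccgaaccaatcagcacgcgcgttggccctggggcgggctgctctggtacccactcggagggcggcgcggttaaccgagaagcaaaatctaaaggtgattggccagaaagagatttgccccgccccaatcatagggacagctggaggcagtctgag
Atf3, chr1:191183334-191183583, minus strand: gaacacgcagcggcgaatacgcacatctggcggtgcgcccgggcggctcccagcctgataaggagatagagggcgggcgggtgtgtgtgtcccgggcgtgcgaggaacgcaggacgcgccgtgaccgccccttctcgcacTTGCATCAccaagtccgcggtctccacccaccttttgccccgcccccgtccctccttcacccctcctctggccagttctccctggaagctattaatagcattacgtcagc
In Trib3 the composite element, as TTACATCA, lay 14 to 21 bases after the first transcribed base of the RefSeq window, which is ahead of the start that GENCODE M21 gives this gene. In Ppp1r15a the cAMP response element lay 12 to 5 bases before the start. For these genes 30 bases around the motif are shown, again with the motif in capitals.
Trib3, chr2:152344028-152344057, minus strand: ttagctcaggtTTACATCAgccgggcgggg
Ppp1r15a, chr7:45526262-45526291, minus strand: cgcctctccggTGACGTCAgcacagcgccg
The ER stress element bound by ATF6 (CCAAT, 9 bases of any kind, CCACG) was in none of the windows and in 0.119% of all promoters. These are matches of letters in a short window, and binding was not measured.

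Sildenafil treatment went with a different pattern of the program in each line. In MC38 10 of the 10 genes rose and 0 fell, where 19.5% of the 13363 genes tested rose and 18.3% fell. In 4T1 4 rose (Ddit4, Ddit3, Atf5 and Atf3) and 5 fell (Chac1, Sesn2, Cebpg, Ppp1r15a and Trib3). Of the 13914 genes tested there, 33.5% rose and 33.3% fell, so the 4T1 counts were not far from the shares of all genes. In LLC 1 rose (Ddit4) and 7 fell (Trib3, Atf3, Ddit3, Sesn2, Ppp1r15a, Cebpg and Chac1), where 15.1% of 13561 genes rose and 12.2% fell. The median log2 fold change of the 10 genes was -0.06 in 4T1, 0.80 in MC38 and -0.44 in LLC, while the median of all genes tested lay at 0.0023, 0.0040 and -0.0062 in the same lines. The sildenafil and control libraries of a line overlapped in level for Atf4 in 4T1 and for Atf4 in LLC, and in no other of the 30 pairs of groups. Ranges that do not overlap were common, at 70.9% of all genes tested in 4T1, 48.8% in MC38 and 43.6% in LLC. In bulk RNA a lower level in part of the cells and a lower level in every cell cannot be told apart.

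**Figure D1:**
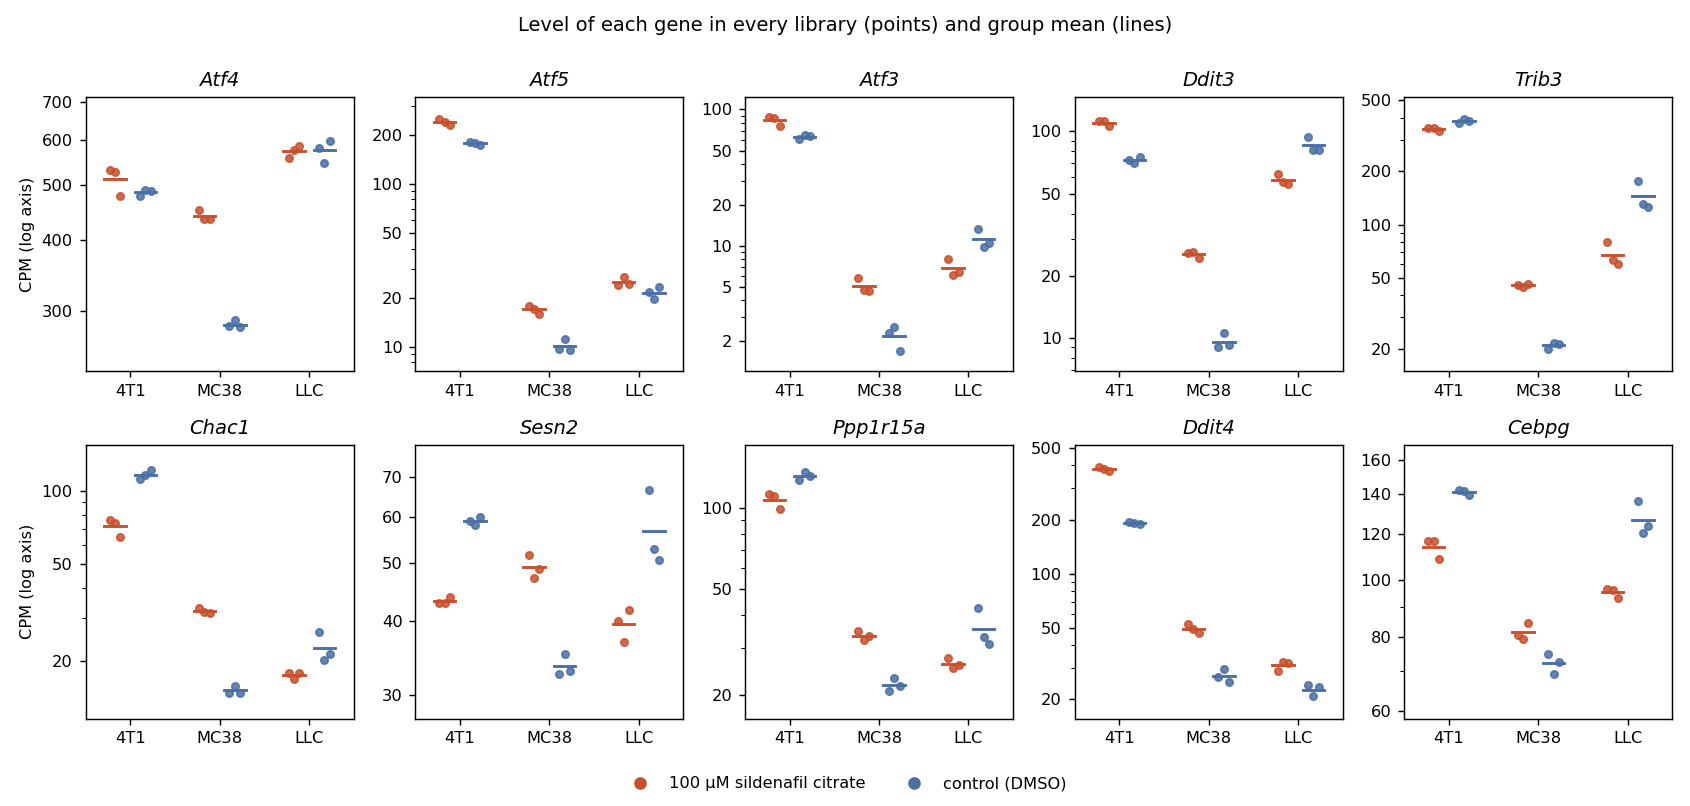
Level of each of the 10 genes in every library, in CPM on a log axis, with the sildenafil-treated libraries of each line left of its control libraries. Points are single libraries (n = 3 per group) and short lines are group means. In MC38 every gene's sildenafil points lie above its control points, while in LLC 7 of the 10 genes were called lower with sildenafil.

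Atf4 (chr15:80255184-80257541, GRCm38, plus strand) encodes the factor that drives the program. It had 452, 435 and 436 CPM in sildenafil-treated MC38 libraries, against 282, 289 and 281 CPM in control MC38 libraries. The MC38 groups did not overlap, and Atf4 rose by 0.63 ± 0.0286 (SE, adjusted p = 1.7e-10) on the log2 scale. In 4T1, Atf4 had 532, 527 and 478 CPM in sildenafil-treated 4T1 libraries, against 478, 491 and 489 CPM in control 4T1 libraries. The lowest treated 4T1 library lay within the control range, and the log2 fold change was 0.06 ± 0.037 (SE, adjusted p = 0.177). Without that library, sildenafil replicate 3, Atf4 passed the test at 0.11 (adjusted p = 0.000163). In LLC, Atf4 had 557, 576 and 585 CPM in sildenafil-treated LLC libraries, against 582, 547 and 598 CPM in control LLC libraries. The LLC ranges overlapped, and the log2 fold change was -0.02 ± 0.0505 (SE, adjusted p = 0.743).

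Ddit3 (chr10:127290774-127296288, plus strand) encodes CHOP, a C/EBP-family factor known for its part in cell death under lasting stress. Its transcript had 25.7, 26.2 and 24.3 CPM in sildenafil-treated MC38 libraries, against 9.02, 10.5 and 9.21 CPM in control MC38 libraries. All treated MC38 libraries lay above all control libraries, and Ddit3 rose by 1.40 ± 0.0664 (SE, adjusted p = 3.2e-10). It had 112, 112 and 107 CPM in sildenafil-treated 4T1 libraries, against 72.7, 70.6 and 75.1 CPM in control 4T1 libraries. The 4T1 groups stood apart in the same direction, with a rise of 0.58 ± 0.0355 (SE, adjusted p = 8.27e-09). In LLC the order was turned round, with 61.8, 57.1 and 55.3 CPM in sildenafil-treated LLC libraries, against 93.8, 81.04 and 81.4 CPM in control LLC libraries. Every treated LLC library lay below every control library, and the log2 fold change was -0.58 ± 0.0704 (SE, adjusted p = 0.000446). A second annotated gene named Ddit3 with 105 exonic bases, inside the main one at chr10:127290829-127293753, had between 0 and 0.248 CPM in the 18 libraries and was not tested. The main gene overlaps Mars, the methionyl-tRNA synthetase gene, on the other strand. Mars changed by -0.34 in 4T1 (adjusted p = 2.51e-06), by -0.20 in LLC (adjusted p = 0.00791), and had -0.03 in MC38 (adjusted p = 0.5). The libraries were made with a stranded kit, but whether counting used the strand is not stated, and values of a gene that another overlaps on the opposite strand are uncertain for that reason.

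Atf5 (chr7:44812256-44816658, minus strand) encodes a factor that, like ATF4, is translated preferentially when eIF2 is phosphorylated. It had 251, 240.2 and 230.4 CPM in sildenafil-treated 4T1 libraries, against 180.3, 178 and 172 CPM in control 4T1 libraries. It had far lower levels in MC38, with 17.9, 16.9 and 15.96 CPM in sildenafil-treated MC38 libraries, against 9.63, 11.1 and 9.59 CPM in control MC38 libraries. In both lines the groups were apart, and Atf5 rose by 0.43 ± 0.0329 (SE, adjusted p = 7.82e-08) in 4T1 and by 0.74 ± 0.0759 (SE, adjusted p = 2.19e-06) in MC38. In LLC, Atf5 had 24.03, 26.8 and 24.1 CPM in sildenafil-treated LLC libraries, against 21.6, 19.6 and 23.1 CPM in control LLC libraries. The LLC groups did not overlap either, but the log2 fold change of 0.20 ± 0.0746 (SE, adjusted p = 0.0724) missed the threshold. Without control replicate 3 of LLC it passed, at 0.26 (adjusted p = 0.00914). Atf5 overlaps Nup62, a nuclear pore gene on the other strand, whose log2 fold changes were -0.42 in 4T1, -0.13 in MC38 and -0.10 in LLC.

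Atf3 (chr1:191170296-191218039, minus strand) encodes a stress-induced bZIP factor that often represses its targets. Per exon length it was the least abundant of the 10 genes in MC38, and it had 5.85, 4.75 and 4.65 CPM in sildenafil-treated MC38 libraries, against 2.32, 2.54 and 1.70 CPM in control MC38 libraries. These values stood apart, and Atf3 rose by 1.21 ± 0.157 (SE, adjusted p = 2.22e-05). It had 87.8, 86.7 and 75.1 CPM in sildenafil-treated 4T1 libraries, against 61.04, 64.5 and 63.7 CPM in control 4T1 libraries. That was a rise of 0.38 ± 0.0523 (SE, adjusted p = 2.93e-05) with no overlap. In LLC, Atf3 had 8.08, 6.101 and 6.50 CPM in sildenafil-treated LLC libraries, against 13.4, 9.91 and 10.5 CPM in control LLC libraries. Treated LLC libraries were lower without overlap, and the log2 fold change was -0.73 ± 0.145 (SE, adjusted p = 0.0067).

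Cebpg (chr7:35046422-35056573, minus strand) encodes C/EBP gamma, a heterodimer partner of ATF4. It had 96.6, 96.1 and 93.3 CPM in sildenafil-treated LLC libraries, against 136, 120.4 and 124 CPM in control LLC libraries. In LLC it fell, with a log2 fold change of -0.43 ± 0.0553 (SE, adjusted p = 0.000562). It had 117, 117 and 108 CPM in sildenafil-treated 4T1 libraries, against 143, 142 and 139.6 CPM in control 4T1 libraries. The 4T1 change was -0.33 ± 0.0328 (SE, adjusted p = 9.71e-07), also with no overlap. In MC38, Cebpg had 80.8, 79.5 and 84.6 CPM in sildenafil-treated MC38 libraries, against 74.99, 69.3 and 72.5 CPM in control MC38 libraries. It rose there by 0.17 ± 0.0383 (SE, adjusted p = 0.00213), the smallest of the 10 changes in MC38.

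Among the target genes, Trib3 (chr2:152337422-152344032, minus strand) encodes a pseudokinase that binds ATF4 and CHOP and dampens their activity. It had 45.96, 44.4 and 46.3 CPM in sildenafil-treated MC38 libraries, against 19.98, 21.5 and 21.2 CPM in control MC38 libraries. The treated MC38 libraries were all above the control libraries, and Trib3 rose by 1.12 ± 0.047 (SE, adjusted p = 7.06e-11). It had 80.1, 63.2 and 59.8 CPM in sildenafil-treated LLC libraries, against 177, 131 and 126 CPM in control LLC libraries. Control replicate 1 was the highest and treated replicate 1 the highest of the treated LLC libraries, with no overlap between the groups, and the log2 fold change was -1.11 ± 0.189 (SE, adjusted p = 0.0127). In 4T1, where Trib3 was most abundant, it had 348, 348 and 336 CPM in sildenafil-treated 4T1 libraries, against 374, 391 and 384 CPM in control 4T1 libraries. The 4T1 fall was small, at -0.17 ± 0.0291 (SE, adjusted p = 0.00013), without overlap, and did not pass the test when all 18 libraries were fitted together (-0.15, adjusted p = 0.274).

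Chac1 (chr2:119351229-119354381, plus strand), whose promoter window is shown above, encodes an enzyme that breaks down glutathione. It had 76.02, 74.1 and 64.96 CPM in sildenafil-treated 4T1 libraries, against 113, 117 and 122 CPM in control 4T1 libraries. Chac1 fell in 4T1, with a log2 fold change of -0.72 ± 0.0527 (SE, adjusted p = 1.48e-07) and groups far apart. It had 32.9, 31.6 and 31.4 CPM in sildenafil-treated MC38 libraries, against 14.8, 15.7 and 14.8 CPM in control MC38 libraries. In MC38 it rose by 1.08 ± 0.0514 (SE, adjusted p = 3.28e-10). In LLC, Chac1 had 17.8, 16.9 and 17.7 CPM in sildenafil-treated LLC libraries, against 26.4, 20.2 and 21.4 CPM in control LLC libraries. All treated LLC libraries were lower than the control libraries, with a log2 fold change of -0.40 ± 0.0966 (SE, adjusted p = 0.0151).

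Sesn2 (chr4:132492032-132510501, minus strand) encodes sestrin 2, a leucine sensor that restrains the growth kinase complex mTORC1. It had 42.8, 42.9 and 43.9 CPM in sildenafil-treated 4T1 libraries, against 58.9, 58.03 and 59.9 CPM in control 4T1 libraries. The 4T1 groups were tight and apart, with a log2 fold change of -0.47 ± 0.0345 (SE, adjusted p = 5.07e-08). It had 51.6, 47.3 and 48.9 CPM in sildenafil-treated MC38 libraries, against 32.6, 35.2 and 32.9 CPM in control MC38 libraries. Sesn2 rose in MC38 by 0.55 ± 0.0478 (SE, adjusted p = 3.76e-07). In LLC, Sesn2 had 39.95, 36.8 and 41.8 CPM in sildenafil-treated LLC libraries, against 66.6, 52.96 and 50.7 CPM in control LLC libraries. There the log2 fold change was -0.54 ± 0.107 (SE, adjusted p = 0.00931), with control replicate 1 again the highest library and no overlap.

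Ppp1r15a (chr7:45522916-45526268, minus strand) encodes GADD34, the subunit that brings protein phosphatase 1 to eIF2 and so helps to end the response. It had 34.7, 32.3 and 33.3 CPM in sildenafil-treated MC38 libraries, against 20.7, 23.1 and 21.8 CPM in control MC38 libraries. Ppp1r15a rose in MC38 by 0.61 ± 0.0526 (SE, adjusted p = 3.51e-07). It had 113, 111 and 99.3 CPM in sildenafil-treated 4T1 libraries, against 127, 137 and 132 CPM in control 4T1 libraries. It fell in 4T1, with a log2 fold change of -0.31 ± 0.0445 (SE, adjusted p = 3.85e-05). In LLC, Ppp1r15a had 27.6, 25.4 and 25.9 CPM in sildenafil-treated LLC libraries, against 42.3, 33.1 and 31.2 CPM in control LLC libraries. The LLC log2 fold change was -0.45 ± 0.114 (SE, adjusted p = 0.0233), and the groups of all 3 lines were free of overlap.

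Ddit4 (chr10:59949669-59951834, minus strand) encodes REDD1, an inhibitor of mTORC1 that is also induced by hypoxia, glucocorticoids and DNA damage. It passed the test as higher in all 3 lines. Atf5 did so in LLC as well under some settings, at 0.21 with library totals only (adjusted p = 0.0499), 0.21 with no filter (adjusted p = 0.0284) and 0.22 with all 18 libraries in 1 fit (adjusted p = 0.0116). Ddit4 had 391, 381 and 371 CPM in sildenafil-treated 4T1 libraries, against 194, 190.1 and 189.8 CPM in control 4T1 libraries. It had 52.3, 49.2 and 46.9 CPM in sildenafil-treated MC38 libraries, against 26.7, 29.5 and 24.9 CPM in control MC38 libraries. It had 28.9, 32.3 and 31.97 CPM in sildenafil-treated LLC libraries, against 23.99, 20.8 and 23.3 CPM in control LLC libraries. In none of the lines did the groups overlap, and the rises were 0.97 ± 0.0287 (SE, adjusted p = 9.3e-12) in 4T1, 0.87 ± 0.0618 (SE, adjusted p = 2.09e-07) in MC38 and 0.43 ± 0.07 (SE, adjusted p = 0.00205) in LLC.

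**Figure D2:**
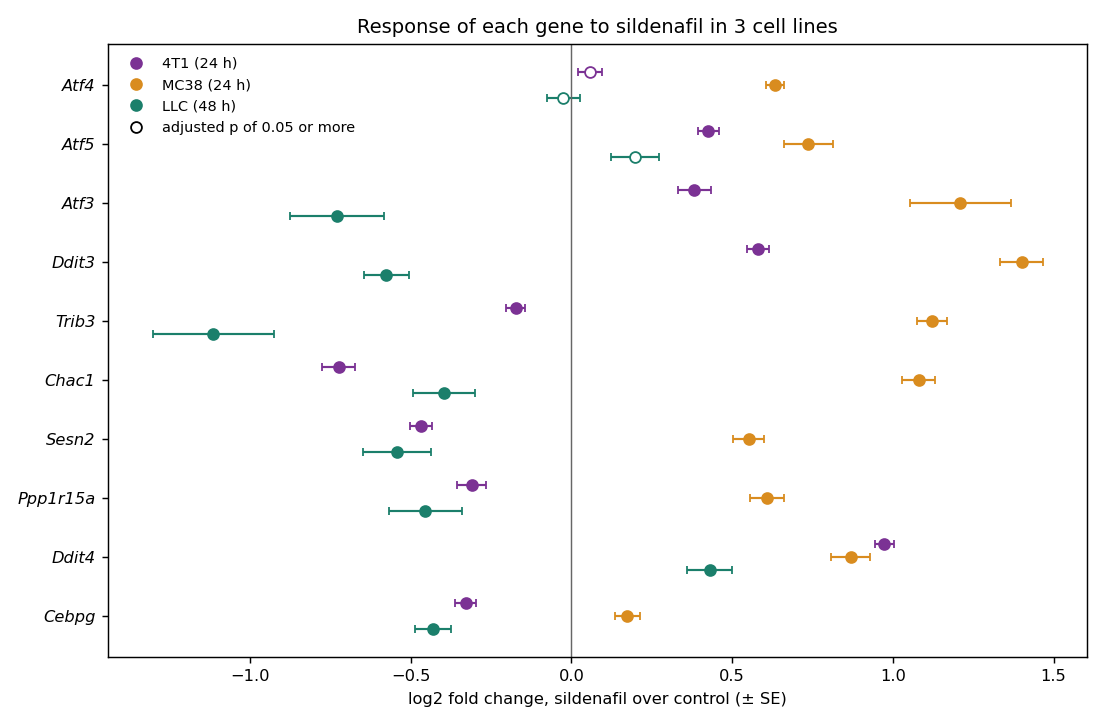
Log2 fold change of sildenafil over control for each gene and line, with the standard error as a bar. Filled points passed an adjusted p of 0.05 and open points did not. Ddit4 and Atf5 lie to the right of 0 in all 3 lines, with an open point for Atf5 in LLC. Trib3 spreads widest, between -1.11 in LLC and 1.12 in MC38.

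The LLC libraries differed among themselves. By a chi-square of counts over all but the lowest genes, control replicate 3 stood furthest from the other LLC control libraries. Per degree of freedom it was 48.7 against replicate 1 and 41.1 against replicate 2, and 10.6 between replicates 1 and 2. For the 10 genes described here another library stood out. LLC control replicate 1 was the highest of the 3 LLC control libraries for Trib3, Atf3, Ddit3, Chac1, Sesn2, Ppp1r15a and Cebpg. Without it the same number of genes, 8, passed, and the log2 fold changes of the 7 genes that fell were nearer to 0, at -0.94 (adjusted p = 0.00772) for Trib3, -0.30 (adjusted p = 0.0181) for Ppp1r15a and -0.27 (adjusted p = 0.033) for Chac1. With sildenafil replicate 2 left out 5 genes passed, and Trib3, Chac1 and Ppp1r15a did not, at -1.06 (adjusted p = 0.0539), -0.37 (adjusted p = 0.0708) and -0.43 (adjusted p = 0.0905) in that order. With sildenafil replicate 3 left out 6 passed, and Chac1 and Ppp1r15a did not, at -0.40 (adjusted p = 0.0625) and -0.44 (adjusted p = 0.0889). Of all genes in LLC, 3702 passed with every library, 1999 without sildenafil replicate 2 and 1841 without sildenafil replicate 3. Leaving out control replicate 1 gave 2299, and single libraries left out moved the number between 1841 and 5994. The noncoding gene Gm26917, named here because of its size, took 5883 to 13877 CPM in treated LLC and 9668 to 29653 CPM in control LLC, in overlapping ranges and with the highest value in control replicate 1. It also differed between the groups of MC38, with 4893 to 5898 CPM treated and 8898 to 14071 CPM in control, and of 4T1, with 243.5 to 284.5 CPM treated and 157 to 163 CPM in control. With its level as a covariate, 3 of the 10 genes passed in 4T1, 7 in MC38 and 5 in LLC. Calls were lost in general, as 1189, 1027 and 2279 of all genes passed in 4T1, MC38 and LLC. Without the covariate these numbers were 9285, 5047 and 3702. That covariate follows treatment, with a squared correlation of 0.967 in 4T1, 0.850 in MC38 and 0.464 in LLC, so Gm26917 and treatment cannot be told apart in 4T1 and MC38. Among the 10 genes, some that no longer passed kept a fold change near the value without the covariate. These were Atf5 in 4T1 (0.48 with it, 0.43 without), Sesn2 in 4T1 (-0.57 with it, -0.47 without) and Atf5 in MC38 (0.59 with it, 0.74 without). Others moved towards 0, as in 4T1 Trib3 (-0.0031 with it, -0.17 without), Chac1 (-0.19 with it, -0.72 without) and Cebpg (-0.097 with it, -0.33 without). In MC38, Atf3 (0.35 with it, 1.21 without) and Cebpg (0.13 with it, 0.17 without) did so. In LLC, Sesn2 (-0.38 with it, -0.54 without), Chac1 (-0.27 with it, -0.40 without) and Ppp1r15a (-0.23 with it, -0.45 without) did so too. Ppp1r15a in 4T1, at -0.31 without the covariate, turned to 0.15 with that covariate (adjusted p = 0.709).

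The test of the difference between responses showed which of these contrasts held between lines. For MC38 minus 4T1, 9 of 10 genes responded higher in MC38 and 0 lower, with 17.9% of 16040 genes tested called higher and 16.7% lower. The largest were Chac1 at 1.79 ± 0.103 (SE, adjusted p = 5.98e-11) and Trib3 at 1.28 ± 0.174 (SE, adjusted p = 5.67e-05), while Ddit4 did not pass at -0.12 ± 0.0782 (SE, adjusted p = 0.264). For LLC minus MC38, 10 of 10 genes were lower in LLC and 0 higher, with 9.68% of genes lower and 12.6% higher. Trib3 differed most, at -2.22 ± 0.179 (SE, adjusted p = 1.21e-06), followed by Ddit3 at -1.96 ± 0.0909 (SE, adjusted p = 7.63e-13) and Atf3 at -1.93 ± 0.231 (SE, adjusted p = 1.54e-05). For LLC minus 4T1, 5 genes were lower and 1 higher, with 20.2% of genes lower and 21.8% higher. Ddit3 at -1.16 ± 0.078 (SE, adjusted p = 7.33e-11) and Atf3 at -1.11 ± 0.163 (SE, adjusted p = 2.94e-05) were the furthest apart. Chac1 was the gene higher in LLC, at 0.33 ± 0.104 (SE, adjusted p = 0.014), with a smaller fall there than in 4T1. Atf4, Sesn2, Ppp1r15a and Cebpg did not pass for LLC minus 4T1, with differences between -0.14 ± 0.117 (Ppp1r15a) and -0.08 ± 0.102 (Sesn2). With library totals only, 8 genes passed for LLC minus 4T1, Atf4 (-0.14, adjusted p = 0.0307) and Cebpg (-0.16, adjusted p = 0.0386) among them. The difference for Atf5 was less stable than the others. For LLC minus 4T1, at -0.23 ± 0.082 (SE, adjusted p = 0.0285), it did not pass without any one of 4T1 control replicate 3, 4T1 sildenafil replicates 1 and 2, LLC control replicates 1 and 3, and LLC sildenafil replicates 1 and 3, with values from -0.28 to -0.17 over all libraries left out. For MC38 minus 4T1, at 0.29 ± 0.0889 (SE, adjusted p = 0.0118), it did not pass without MC38 sildenafil replicate 1, at 0.25 (adjusted p = 0.0583). These 3 sets of differences share libraries and are not independent of each other.

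Control levels of the program differed widely between the lines. All 10 genes were higher in 4T1 than in MC38, where 42.7% of genes were higher and 42.1% lower. Atf3 averaged 63.1 ± 1.803 CPM in 4T1 and 2.19 ± 0.438 CPM in MC38, a log2 difference of 4.85 ± 0.141 (SE, adjusted p = 2.27e-15). Trib3 averaged 383 ± 8.501 CPM in 4T1 and 20.9 ± 0.794 CPM in MC38, 4.20 ± 0.135 (SE, adjusted p = 8.15e-13). Atf5 followed with 177 ± 4.48 CPM in 4T1 and 10.1 ± 0.889 CPM in MC38, 4.12 ± 0.0658 (SE, adjusted p = 6.21e-24). Atf4 itself differed far less, with 486 ± 6.89 CPM in 4T1 and 284 ± 4.299 CPM in MC38, 0.77 ± 0.0419 (SE, adjusted p = 4.59e-14). Over the 3 lines the highest control mean was 2.03 times the lowest for Atf4, 1.96 times for Cebpg and 1.76 times for Sesn2, against 28.8 times for Atf3, 18.3 times for Trib3 and 17.5 times for Atf5.

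Between 4T1 and LLC control cells 7 genes were higher in 4T1 and 2 lower, where 45.8% of genes were higher and 41.3% lower. The gaps were widest for Ddit4, at 191 ± 2.58 CPM in 4T1 and 22.7 ± 1.65 CPM in LLC (3.07 ± 0.0595), and for Atf5 (3.04 ± 0.0601). The genes lower in 4T1 were Atf4, at -0.24 ± 0.0415 (SE, adjusted p = 9.88e-06), and Ddit3, at 72.8 ± 2.22 CPM in 4T1 and 85.4 ± 7.28 CPM in LLC, -0.23 ± 0.0549 (SE, adjusted p = 0.000489). Sesn2 did not pass, at 0.05 ± 0.0711 (SE, adjusted p = 0.483), and without LLC control replicate 1 it did, at 0.17 (adjusted p = 0.00458). Between MC38 and LLC control cells 9 genes were lower in MC38 and 1, Ddit4, was higher, where 38% of genes were lower and 39% higher. Ddit3 averaged 9.58 ± 0.813 CPM in MC38 and 85.4 ± 7.28 CPM in LLC (-3.16 ± 0.0676 SE, adjusted p = 1.39e-21), and Trib3 20.9 ± 0.794 and 145 ± 28.1 CPM (-2.79 ± 0.132 SE, adjusted p = 8.63e-11). Ddit4, at 27.01 ± 2.32 CPM in MC38 and 22.7 ± 1.65 CPM in LLC, had a log2 difference of 0.25 ± 0.0629 (SE, adjusted p = 0.0011). The order of the control levels was thus 4T1, LLC, MC38 for Atf5, Atf3, Trib3, Chac1, Ppp1r15a and Cebpg, and 4T1, MC38, LLC for Ddit4. It was LLC, 4T1, MC38 for Atf4 and Ddit3. For Sesn2, 4T1 and LLC could not be ordered beyond their spread, and both lay above MC38. The gap between 4T1 and LLC for Cebpg, 0.16 ± 0.0441 (SE, adjusted p = 0.00243), did not pass with RLE factors (0.07, adjusted p = 0.131), with DESeq2 (0.07, adjusted p = 0.146) or with only those lines fitted (0.07, adjusted p = 0.153).

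**Figure D3:**
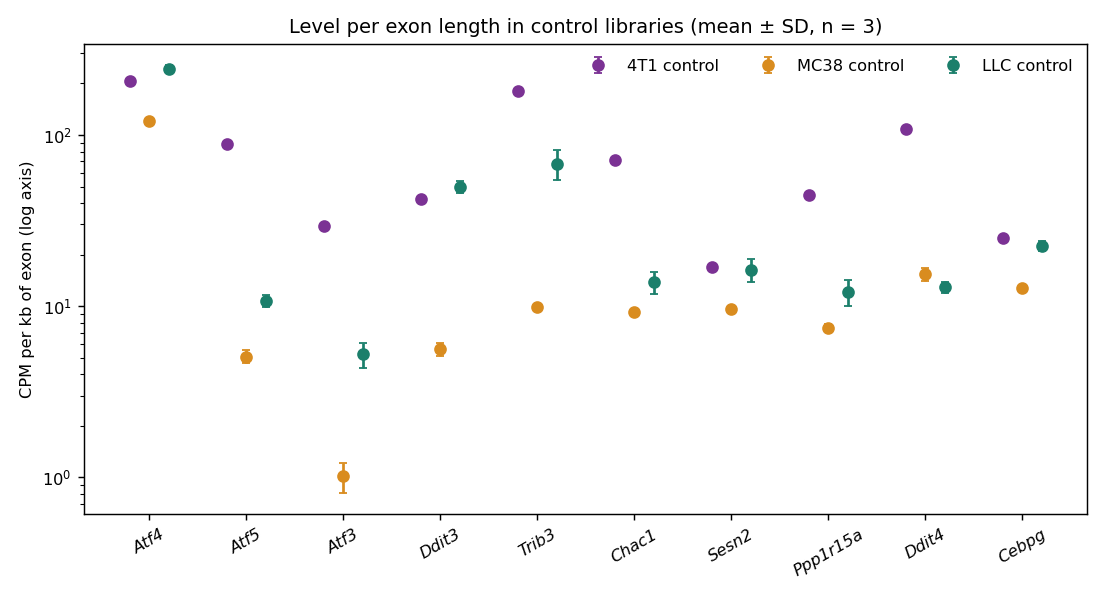
Level of each gene per kilobase of exon in the control libraries of the 3 lines, in CPM per kb on a log axis, as mean and SD of 3 libraries. Atf4, Sesn2 and Cebpg lie close together across lines, while Atf3, Trib3 and Atf5 lie furthest apart.

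Set against exon length, so that genes can be compared with each other, Atf4 was the most abundant of the 10 in all 6 groups. In 4T1, Atf4 had 217 CPM per kb with sildenafil and 206 CPM per kb in control. Ddit4 did not differ from it beyond the spread in treated 4T1 cells, at 217 CPM per kb with sildenafil and 109 in control. Trib3 had 162 CPM per kb with sildenafil and 180.3 in control 4T1. In MC38 the second gene stood far below Atf4. There Atf4 had 187 CPM per kb with sildenafil and 120.4 in control, and Ddit4 28.2 with sildenafil and 15.4 in control. In LLC, Atf4 had 243 CPM per kb with sildenafil and 244 in control, Ddit3 33.9 with sildenafil and 49.9 in control, and Trib3 31.9 with sildenafil and 68.03 in control. Atf3 was the least abundant in all 4 groups of MC38 and LLC, and Sesn2 in both groups of 4T1.

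Counts in the related gene lists are to be read against the shares of all genes called, 33.5% higher and 33.3% lower in 4T1, 19.5% and 18.3% in MC38, and 15.1% and 12.2% in LLC. No list is called apart from other genes here. The genes for eIF2, its kinases and its other regulators act ahead of ATF4. Of 20 tested in each line, 4 rose and 14 fell in 4T1 (median log2 fold change -0.17), 4 rose and 10 fell in MC38 (median -0.07), and 6 rose and 2 fell in LLC (median 0.02). Eif2ak3, which encodes PERK, the kinase that senses unfolded protein in the ER, rose in 4T1, at 29.4 ± 1.97 CPM with sildenafil and 16.6 ± 0.785 CPM in control (0.80 ± 0.0585 SE, adjusted p = 4.45e-08), and in MC38, at 54.6 ± 1.76 CPM with sildenafil and 37.6 ± 1.48 CPM in control (0.53 ± 0.0442 SE, adjusted p = 2.35e-07), and by 0.22 ± 0.0538 in LLC. Eif2ak2, which encodes the RNA-sensing kinase PKR, rose by 1.03 ± 0.0555 in 4T1, 0.17 ± 0.0401 in MC38 and 0.42 ± 0.0508 in LLC. Eif2ak1, the haem-regulated kinase gene, rose in LLC by 0.43 ± 0.0712 and fell in 4T1 (-0.15 ± 0.0438 SE, adjusted p = 0.00934). Eif2s1, which encodes the phosphorylated subunit eIF2 alpha, fell in 4T1 (-0.73 ± 0.0324 SE, adjusted p = 3.87e-10) and in MC38 (-0.21 ± 0.0307 SE, adjusted p = 6.88e-05).

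Most genes of amino acid supply, the best known targets of ATF4, fell in 4T1 and LLC. Of the synthesis and one-carbon genes, 0 rose and 13 fell of 14 tested in 4T1 (median -0.36), 6 rose and 2 fell of 13 in MC38 (median 0.08), and 0 rose and 12 fell of 13 in LLC (median -0.44). Cth, which makes cysteine, fell, with log2 fold changes of -0.82 ± 0.0592 (SE, adjusted p = 4.53e-07) in 4T1 and -1.10 ± 0.128 (SE, adjusted p = 0.000375) in LLC. Aldh1l2, a mitochondrial folate enzyme gene, averaged 35.4 ± 1.16 CPM with sildenafil and 20.2 ± 1.32 CPM in control MC38 cells, a rise of 0.80 ± 0.0537 (SE, adjusted p = 2.18e-08). It fell in 4T1 (-0.33 ± 0.104 SE, adjusted p = 0.0117) and in LLC (-0.96 ± 0.0588 SE, adjusted p = 7.3e-06). Phgdh, which opens serine synthesis, fell in all 3 lines, with -0.38 ± 0.0522 in 4T1, -0.18 ± 0.0296 in MC38 and -0.19 ± 0.0494 in LLC. Of the amino acid transporter genes, 7 of 9 tested fell in 4T1 (median -0.29) and 7 of 9 in LLC (median -0.29), with 0 rising in either, while 4 rose and 1 fell of 8 in MC38 (median 0.13). Slc7a11, the cystine importer gene, rose in MC38 by 0.70 ± 0.0604 (SE, adjusted p = 3.65e-07) and fell in 4T1 (-0.20 ± 0.0373 SE, adjusted p = 0.000272) and in LLC (-0.86 ± 0.0543 SE, adjusted p = 7.92e-06), where it averaged 49.7 ± 1.802 CPM with sildenafil and 89.1 ± 4.52 CPM in control. Slc7a5, the leucine importer gene, fell in all 3 lines, with -0.74 ± 0.0343 in 4T1, -0.24 ± 0.0283 in MC38 and -0.22 ± 0.0616 in LLC.

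Of 20 genes of cytosolic aminoacyl-tRNA synthetases, which charge tRNAs and several of which are ATF4 targets, 1 rose and 17 fell in 4T1 (median -0.44), 5 rose and 9 fell in MC38 (median -0.05), and 0 rose and 10 fell in LLC (median -0.14). Qars was the gene that rose in 4T1, at 0.46 ± 0.0276 (SE, adjusted p = 7.37e-09). Sars and Cars rose in MC38, by 0.20 ± 0.0297 and 0.20 ± 0.0318, and Sars fell in LLC (-0.22 ± 0.044 SE, adjusted p = 0.00582). Iars fell in all 3 lines, with -0.47 ± 0.0274 in 4T1, -0.32 ± 0.0897 in MC38 and -0.65 ± 0.15 in LLC. Of 16 further targets of ATF4 or CHOP, 9 rose and 5 fell of 15 tested in 4T1 (median 0.16), 9 rose and 0 fell of 13 in MC38 (median 0.33), and 2 rose and 4 fell of 13 in LLC (median -0.04). Nupr1, a small stress-induced chromatin protein gene, rose by 0.30 ± 0.0395 in 4T1, 0.81 ± 0.036 in MC38 and 0.38 ± 0.0541 in LLC. Map1lc3b, which encodes the autophagosome protein LC3B, rose in 4T1, at 237 ± 7.97 CPM with sildenafil and 118 ± 2.87 CPM in control (0.98 ± 0.0342 SE, adjusted p = 4.25e-11), and by 0.46 ± 0.0299 in MC38 and 0.43 ± 0.0472 in LLC. Ero1l, an ER oxidase gene, fell in LLC, at 182 ± 8.88 CPM with sildenafil and 355 ± 19.3 CPM in control (-0.98 ± 0.0556 SE, adjusted p = 5.35e-06), and rose by 0.25 ± 0.0429 (SE, adjusted p = 0.000173) in 4T1 and 0.39 ± 0.037 (SE, adjusted p = 9.68e-07) in MC38.

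In the other branches of the unfolded protein response, run by ATF6 and XBP1, 8 rose and 5 fell of 23 in 4T1 (median 0.03), 17 rose and 0 fell in MC38 (median 0.18), and 4 rose and 2 fell in LLC (median 0.03). Dnajb9, an XBP1 target and ER cochaperone gene, rose in 4T1 by 0.74 ± 0.0517 (SE, adjusted p = 3.14e-08) and in MC38 by 0.66 ± 0.0552 (SE, adjusted p = 2.76e-07). Hspa5, the main ER chaperone gene, averaged 2408 ± 11.8 CPM with sildenafil and 3507 ± 84.3 CPM in control 4T1 cells, with a log2 fold change of -0.56 ± 0.0306 (SE, adjusted p = 2.84e-09). It rose in MC38 by 0.22 ± 0.0296 (SE, adjusted p = 2.64e-05) and had 0.02 ± 0.0669 (SE, adjusted p = 0.854) in LLC. Of the other ATF, CREB and C/EBP family genes, 8 rose and 5 fell of 19 in 4T1 (median 0.06), 6 and 2 of 20 in MC38 (median 0.11), and 3 and 4 of 18 in LLC (median 0.02). Atf1 fell in all 3 lines, with log2 fold changes of -0.25 ± 0.0333 in 4T1, -0.15 ± 0.0495 in MC38 and -0.31 ± 0.0726 in LLC.

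Several of the 10 genes also answer to hypoxia, DNA damage or growth signals, so those programs were read from the same fits. Of the HIF targets, 12 rose and 2 fell of 15 in 4T1 (median 0.49), 12 rose and 1 fell of 14 in MC38 (median 0.44), and 0 rose and 9 fell of 15 in LLC (median -0.34). Bnip3, a hypoxia-induced mitophagy gene, rose by 1.01 ± 0.0801 (SE, adjusted p = 1.45e-05) in 4T1 and 1.33 ± 0.0571 (SE, adjusted p = 1.89e-09) in MC38, and fell in LLC (-0.59 ± 0.108 SE, adjusted p = 0.00855). Vegfa, the vascular growth factor gene, which is on this list and among the ATF4 or CHOP targets, rose in MC38 by 0.94 ± 0.0554 (SE, adjusted p = 6.52e-09) and in 4T1 by 0.11 ± 0.0373 (SE, adjusted p = 0.0194). Of the p53 targets, 8 rose and 4 fell of 13 in 4T1 (median 0.35), 6 and 2 of 14 in MC38 (median 0.10), and 4 and 2 of 11 in LLC (median 0.07). Trp53inp1 rose in 4T1, at 51.3 ± 6.51 CPM with sildenafil and 8.32 ± 0.352 CPM in control (2.60 ± 0.0972 SE, adjusted p = 1.03e-08), and also by 1.83 ± 0.148 in MC38 and 0.55 ± 0.106 in LLC. Cdkn1a, the p21 gene, fell in LLC (-1.05 ± 0.126 SE, adjusted p = 0.000402) and rose by 0.35 ± 0.0444 (SE, adjusted p = 1.15e-05) in 4T1 and 1.21 ± 0.124 (SE, adjusted p = 2.09e-06) in MC38. Of the immediate early genes, 10 rose and 6 fell of 17 in 4T1 (median 0.21), 3 and 2 of 16 in MC38 (median -0.02), and 3 and 2 of 14 in LLC (median 0.02). Fosl1, an AP-1 subunit gene, fell in 4T1 (-1.12 ± 0.0343 SE, adjusted p = 1.29e-11). The part of these programs in the changes of Ddit4, Atf3 and Sesn2 was not tested.

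**Figure D4:**
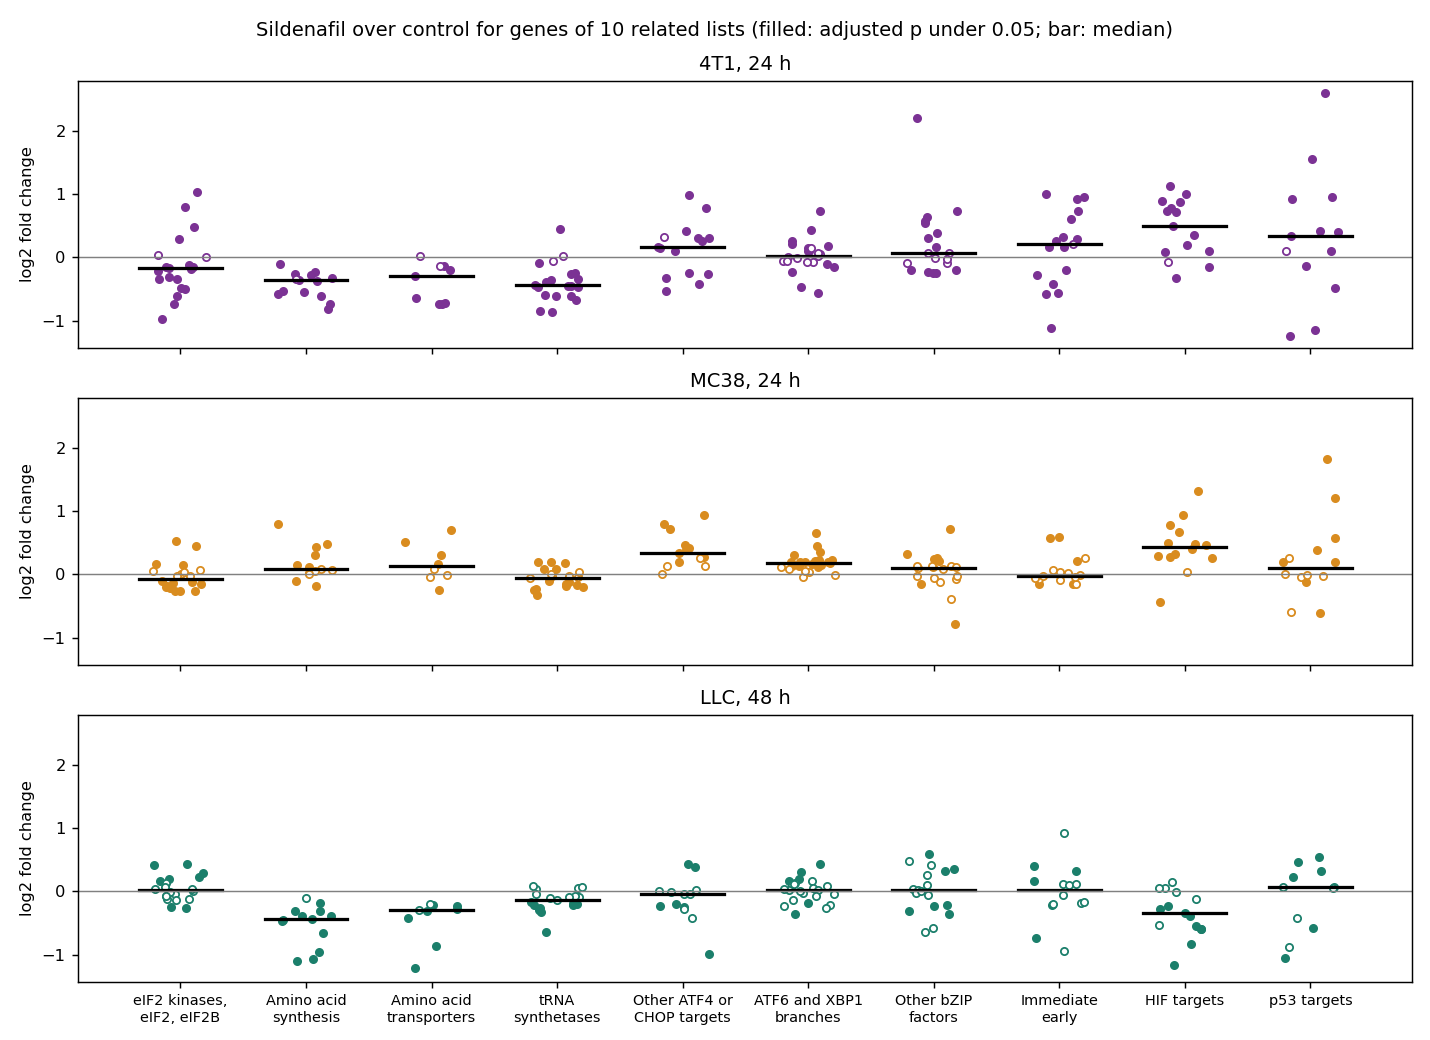
Log2 fold change of sildenafil over control for each tested gene of 10 related lists, 1 panel per line. Filled points passed an adjusted p of 0.05, open points did not, and the bar is the list's median. The medians of the amino acid lists lie below 0 in 4T1 and LLC, at -0.36 and -0.44 for synthesis, and the median of the HIF targets lies above 0 in 4T1 and MC38 and below it in LLC.

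The genes most like Atf4, Ddit3 and Trib3 across the 18 libraries, with each line centred on its own mean, were found by Pearson's r of log2 CPM over 8787 genes that averaged at least 5 CPM in every line. The points share libraries, treatment and depth, so the correlations are descriptions. Trib3 ran closest to Pck2, a mitochondrial phosphoenolpyruvate carboxykinase gene (r = 0.984), Tnfaip2 (r = 0.970) and Slc7a11 (r = 0.968). Ddit3 ran closest to Scarb1, the receptor gene for high-density lipoprotein (r = 0.967), Pdk1, a kinase gene that restrains pyruvate oxidation (r = 0.959), and Tmem231 (r = 0.958). Atf4 ran closest to Ank (r = 0.954), Nelfe (r = 0.954) and Tspan5 (r = 0.948). Among the 10 genes, Atf4 was most like Ddit3 (r = 0.877) and Atf5 (r = 0.861) and least like Cebpg (r = 0.262). Trib3 was most like Ppp1r15a (r = 0.929) and Sesn2 (r = 0.886) and least like Ddit4 (r = 0.142). Atf3 averaged under 5 CPM across the MC38 libraries and was not compared.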

How the data were processed

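The deposited table holds RSEM expected counts per gene for 18 libraries, with no normalization by the authors. The build mm10 and the tools STAR 2.7.0f, RSEM 1.3.1, cutadapt 1.18 and bcl2fastq 2.17 are named in the submitters' processing notes. Per the labels' protocols, libraries were poly(A)-selected and stranded, with paired-end reads. No label or header names the annotation release or how strand was counted, and all 55450 gene IDs match GENCODE M21 on GRCm38, from which exon lengths were taken. Between 26348659 and 61600675 expected counts per library limit the precision of low genes.

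Expected counts, as deposited by the authors, were rounded and tested in R 4.3.3 by the robust quasi-likelihood test of edgeR 4.0.16 (filterByExpr, TMM scaling, Benjamini-Hochberg adjustment over all genes tested, threshold 0.05). Responses were fitted within each line on 6 libraries. Control levels and differences between responses came from 1 fit of 18 libraries. Standard errors are the log2 fold change over the square root of F. CPM use TMM factors over all 18 libraries. The script was tested on simulated counts in which few genes changed, unlike here, so that run does not vouch for these calls. All 10 members are named in every comparison, and from each list at most 2 genes per direction and line, by fold change, among called genes averaging at least 5 CPM. The members, lists and alternatives were chosen with earlier results of these data known. Alternatives used DESeq2 1.42.0, limma 3.58.1, other scaling and filters, a replicate block, Gm26917 as a covariate, and each library left out. No 2 libraries of a group agreed within sampling noise.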

Additional observations from a re-analysis of the deposited data

Results flagged for a closer look

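Altogether 25 differences between lines in the response of a gene to sildenafil passed the test of the difference itself (edgeR, adjusted over all genes). Of the 16040 genes tested, 17.9% responded higher and 16.7% lower for MC38 minus 4T1. These shares were 21.8% higher and 20.2% lower for LLC minus 4T1, and 12.6% higher and 9.68% lower for LLC minus MC38. LLC cells were treated for 48 h and the other lines for 24 h, 4T1 cells grew in another medium, and the 3 contrasts share libraries, so line, time and medium cannot be told apart.

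MC38 minus 4T1 was positive on the log2 scale in 9 genes. It was 0.56 for Atf4, 0.29 for Atf5, 0.81 for Atf3, 0.80 for Ddit3, 1.28 for Trib3, 1.79 for Chac1, 1.00 for Sesn2, 0.90 for Ppp1r15a and 0.49 for Cebpg. LLC minus 4T1 was -0.23 for Atf5, -1.11 for Atf3, -1.16 for Ddit3, -0.94 for Trib3, 0.33 for Chac1 and -0.54 for Ddit4. LLC minus MC38 was negative in all 10 genes, at -0.64 for Atf4, -0.52 for Atf5, -1.93 for Atf3, -1.96 for Ddit3, -2.22 for Trib3, -1.46 for Chac1, -1.08 for Sesn2, -1.05 for Ppp1r15a, -0.42 for Ddit4 and -0.59 for Cebpg.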

How the results depend on the processing

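The number of the 10 genes called stayed within 1.5 times the main count under DESeq2, RLE factors, limma-voom, a stricter filter or none, scaling by totals, unrounded counts, protein-coding genes alone and 1 fit of all 18 libraries, where those were run. With Gm26917 as a covariate, 3 members passed in 4T1, 7 in MC38 and 5 in LLC. Of all genes, 1189, 1027 and 2279 passed in 4T1, MC38 and LLC in that order, against 9285, 5047 and 3702 without it. With single libraries left out, members called numbered 9 to 10 (4T1), 10 to 10 (MC38) and 5 to 9 (LLC). All genes called numbered 8615 to 9564 (4T1), 4026 to 4645 (MC38) and 1841 to 5994 (LLC), where the value without control replicate 3 is the highest and that without sildenafil replicate 3 the lowest.

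Signs turned for these values. Sesn2, 4T1 over LLC control, was -0.0315 with RLE factors, -0.0314 with DESeq2, -0.0291 with only those lines fitted, and ran from -0.0172 to 0.171 with libraries left out. Atf4 in LLC ran from -0.0554 to 0.00569, and LLC minus 4T1 from -0.149 to 0.0680 for Sesn2 and from -0.230 to 0.0145 for Ppp1r15a. Ppp1r15a in 4T1 was 0.15 with the covariate and -0.31 without it.

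Same-numbered libraries did not deviate together in every pair (correlations of -0.0723 to 0.0848 in 4T1, 0.0495 to 0.255 in MC38, -0.103 to 0.23 in LLC), so the numbers were not taken as pairs. The closest control library bore the same number for replicates 1 and 2 of 4T1 and replicates 1 and 3 of MC38 and LLC. With a replicate block 9 members passed in 4T1, 10 in MC38 and 8 in LLC. Of all genes, 9090, 5867 and 4078 passed in the same lines, against 9285, 5047 and 3702 without the block. The causes of these shifts were not tested. Depth limits Atf3 most, at 2.19 ± 0.438 CPM in control MC38 (SD, n = 3).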
